A study of Mus musculus with 6 samples.

Results

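Assembled intronic transcripts are the rows of the deposited long non-coding RNA (lncRNA) table whose relation label reads "Intron LncRNA" and whose identifier starts with MSTRG, the prefix of a transcript put together from the reads and not taken from a catalogue. The label gave 674 transcripts of the 24817 in the table and of its 2305 assembled transcripts. They come from 606 loci, where a locus is the identifier without its last number. Of these, 560 hold 1 member and 46 hold 2 or more, up to 7 in MSTRG.22624.

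The table comes from RNA sequencing of RAW264.7, a mouse macrophage-like line, in 6 libraries. The cells of all 6 received lipopolysaccharide (LPS), the bacterial cell wall component that activates macrophages, for 24 h and were then moved to medium holding an extract of bone cement. The 3 LPS_ES_PMMA libraries had extract of polymethyl methacrylate (PMMA) cement labelled ES; the series title names enoxaparin sodium, a low-molecular-weight heparin, as the addition. The 3 LPS_PMMA libraries carry PMMA in title and treatment label, but LPS alone in their descriptions and table columns, and no group without LPS was compared. No label says whether replicates were separate cultures; the p-values therefore measure spread among these libraries, and that spread may be purely technical. The labels name the abdominal cavity as tissue and 1 cell line; no member was tied to any macrophage marker or marker of another cell type, so the members give no check of that label.

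Introns are removed from the primary transcript during splicing and are mostly degraded. RNA mapped within an intron can be a remnant of the host's precursor, an independent transcript with its own promoter, a small RNA gene nested in the intron, or an unannotated exon. For the members this applies only where the intronic label holds, which the positions described below leave in question. Bulk counts do not separate these sources, and where features overlap on opposite strands their reads cannot be told apart here, since the strand setting of the counting is not given in the sources used. A lower value in a bulk sample can also mean fewer cells that make the RNA or less RNA per cell, which cannot be told apart.

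The most abundant member shows what such a row can hold. MSTRG.9708.1, listed at chromosome 11, positions 87313693 to 87317705, is 316 nt long and is assigned to Ppm1e, a protein phosphatase gene. At the local offset described below, its start falls 0 bp from the start of Rnu1a1 and its end 0 bp from the end of Gm22068. These are 2 genes for U1 small nuclear RNA, the splicing factor RNA that pairs with the 5′ splice site. In GENCODE M21 (GRCm38) they lie on the plus strand of chromosome 11, at 87422867 to 87423030 and at 87426716 to 87426879, are 164 nt each and are 100% identical. Reads of identical copies cannot be assigned to 1 of them, so the level of this member is uncertain. The shared sequence is given as DNA, 5′ to 3′, with the stretch that pairs with 5′ splice sites in capitals, from base 3.
Rnu1a1 and Gm22068: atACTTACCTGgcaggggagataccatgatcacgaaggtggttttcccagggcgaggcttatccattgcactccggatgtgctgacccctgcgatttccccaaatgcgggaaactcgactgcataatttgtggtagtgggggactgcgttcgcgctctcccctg

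The table named a gene for 559 members and none for 115. The 559 fall on 435 different genes, and 535 of them on protein-coding genes. Set against GENCODE M21, the listed position lay inside the body of the named gene for 531, partly inside for 19 and outside for 9, at a distance of up to 19976 bp. It overlapped an exon of that gene for 83. All members were spliced models, since none had a length equal to its genomic span. Their length ran from 202 to 13966 nt (median 481.5), and their span from 285 to 75859 bp (median 2904.5).

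The ends of the members did not meet annotated transcripts at the listed positions. For 364 members, at least 6 other loci within 8 Mb shared one distance between their ends and the ends of GENCODE M21 transcripts, a distance of 11.5 to 726.7 kb called the local offset here. The median number of loci at that offset was 10, against 4 at the next-best one. As listed, 0 of the 364 met the start or end of an annotated transcript within 20 bp. Members were chosen by a label that goes with the listed positions, so few matches there can follow from that choice. Matches were not counted at any further offset for comparison. At the local offset 157 met at least 1 end and 55 met both ends of the same transcript, 37 of them transcripts of protein-coding genes. An exon of a protein-coding gene was overlapped by 48 members as listed and by 284 at the offset. Of the 315 that also had a named gene, 29 overlapped the body of that gene at the offset. The named gene and the intronic label are therefore given below only as the table's entries. The label was not reassigned, and the 284 members with a protein-coding exon in their span at the offset do not bear it out. A match of a single end can be a coincidence, and GRCm39 annotation was not used here.

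**Figure D1:**
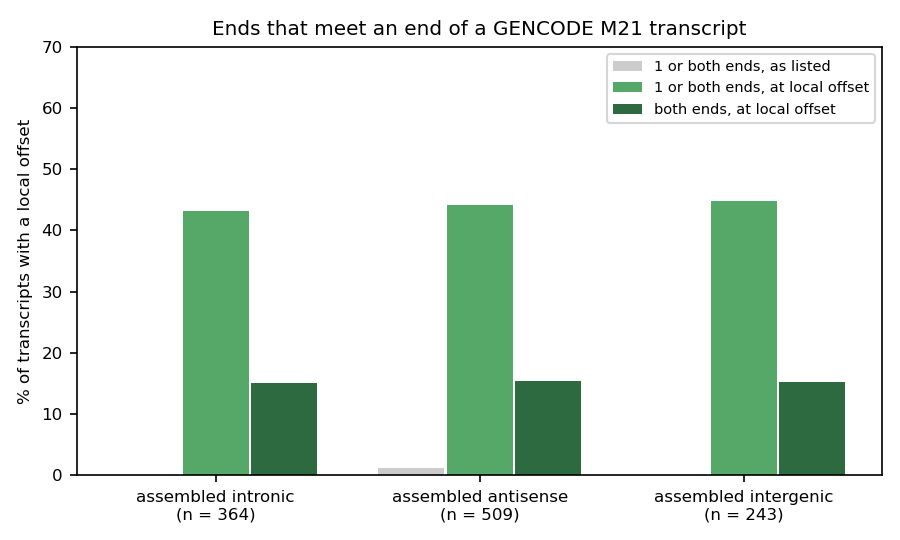
Share (%) of transcripts with a local offset whose ends lie within 20 bp of an end of a GENCODE M21 transcript, for the 3 assembled classes; bars give 1 or both ends at the listed position, 1 or both ends at the local offset, and both ends at the local offset. Intronic members met at least 1 end in 0 of 364 cases as listed and in 157 at the offset. The antisense class had 6 and 225 of 509, and the intergenic class 0 and 109 of 243. The class labels go with the listed positions, which can itself keep matches there few.

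Members with both ends met included several of well-known genes. MSTRG.24599.2, assigned by the table to D17Wsu92e, met a transcript of Hmga1, an architectural chromatin protein, 0 bp from the start and 0 bp from the end. MSTRG.55749.5 met Ubl5, a ubiquitin-like splicing protein, in the same way. So did MSTRG.9006.1, which met Mir22hg, the host transcript of a microRNA, and MSTRG.49458.4, which met Hnrnpl, an RNA-binding splicing regulator. MSTRG.53871.4 met Fkbp8, an immunophilin of the mitochondrial membrane, and MSTRG.15027.10, assigned to the DNA repair gene Fancc, met 2010111I01Rik 3 bp from each end. The same pattern was present in the other assembled classes: both ends were met by 78 of 509 antisense and 37 of 243 intergenic transcripts, and by 0 of either as listed.

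In fragments per 1000 bases and 1000000 fragments (FPKM), the mean over the 6 libraries ran from 0.601 to 11655, with a median of 7.58. The median over all rows was 1.07; it was 8.24 in assembled antisense and 8.42 in assembled intergenic transcripts, and 1.04 in the 3767 annotated sense intronic lncRNAs. No test was made of these differences, and the annotated class is longer (median 1906 nt). A mean FPKM of 10 or more was reached by 236 members and of 100 or more by 30, while 3 were under 1. In raw counts the median member had 103 reads over all 6 libraries, and the lowest had 6.

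Depth was uneven. The libraries listed 3261653, 1123551 and 3070657 counts in LPS_ES_PMMA 1 to 3 and 3697638, 3249485 and 2877523 in LPS_PMMA 1 to 3, of which the members took 1.84% to 3.19%. Between 42 and 109 members had no read in a given library, the most in LPS_ES_PMMA 2, the shallowest one. After scaling by the trimmed mean of M-values (TMM), 3 counts corresponded to 0.729 to 1.52 counts per 1000000 (CPM). Over the members, Pearson's r of log2(FPKM + 0.1) between libraries of a group was 0.51 and 0.519 for the pairs with LPS_PMMA 1 and 0.595 to 0.806 for the others. LPS_ES_PMMA 2 and LPS_PMMA 1 also had the TMM factors farthest apart, 1.82 and 0.559. Results are therefore also given without both of them.

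MSTRG.9708.1 had FPKM values of 12070, 8184 and 16163 in LPS_ES_PMMA 1 to 3 and 3121, 17845 and 12550 in LPS_PMMA 1 to 3. The groups overlapped, with the lowest and the highest library both in LPS_PMMA. The next member, MSTRG.4273.3, had 876, 1290 and 882 FPKM in LPS_ES_PMMA against 337, 458 and 619 in LPS_PMMA. Its groups did not overlap, but the difference did not pass the test (log2 fold change 0.71 on TMM-scaled counts, standard error 0.27, edgeR adjusted p 0.178). The authors' deposited log2 fold change is 1.11. No gene is named for it. MSTRG.28742.4, also without a gene, had 495, 979 and 499 FPKM against 547, 624 and 360, and its groups overlapped.

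MSTRG.53871.4, the member with the Fkbp8 ends, was at 403, 381 and 504 FPKM in LPS_ES_PMMA and at 523, 579 and 634 in LPS_PMMA. MSTRG.45438.7, assigned to the nuclear import gene Kpna7, was at 422, 274 and 493 against 521, 551 and 546. Both were lower in every LPS_ES_PMMA library. On TMM-scaled counts, not FPKM, their log2 fold changes were -0.85 and -0.88 (edgeR adjusted p 0.134 and 0.172), past no threshold. The authors' deposited log2 fold changes are smaller in size, -0.43 and -0.444. MSTRG.24599.3, whose start met Hmga1, had 473, 875 and 244 FPKM against 199, 351 and 368. MSTRG.49835.5, assigned to the kinase gene Vrk3, met the 3′ end of one transcript of Rpl13a, a ribosomal protein gene, and the 5′ end of another, each at 0 bp. It had 247, 891 and 361 FPKM against 285, 312 and 268. In these last members 1 library, LPS_ES_PMMA 2, stood highest.

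Of the remaining members among the 10 most abundant, MSTRG.962.19 had 322, 219 and 224 FPKM in LPS_ES_PMMA against 317, 414 and 504 in LPS_PMMA. Its end fell 0 bp from that of Nrp2, a receptor of semaphorins and growth factors. MSTRG.14299.2 had 372, 115 and 189 against 132, 163 and 200 FPKM, and MSTRG.54891.2, assigned to the ciliary gene Hydin, 154, 95.5 and 142 against 159, 204 and 207. Only MSTRG.962.19 of the 10 passed the test. On the CPM scale its groups stood apart, at 675, 528 and 624 against 1340, 1296 and 1351, a log2 fold change of -1.13 (standard error 0.24, edgeR adjusted p 0.0418); on the FPKM scale LPS_ES_PMMA 1 and LPS_PMMA 1 overlapped.

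**Figure D2:**
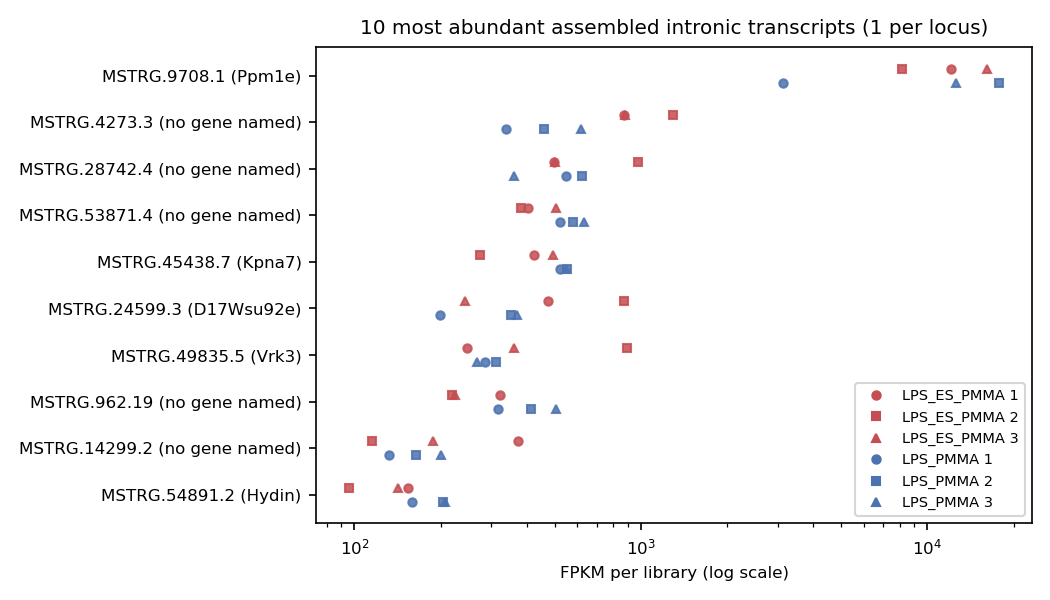
FPKM (log axis) of the 10 most abundant members, 1 per locus, with 1 point per library; colour gives the group and shape the replicate number, and brackets hold the gene named in the table. MSTRG.9708.1 lies between 3121 and 17845 FPKM, above the highest of the others, 1290 FPKM.

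Comparing the cement extract labelled ES with that of plain PMMA, 438 members had enough counts for the test and 236 did not. The test was edgeR's quasi-likelihood F-test, with p adjusted by Benjamini-Hochberg over all 8873 features tested and a threshold of 0.05. Past it were 35 members: 28 fell and 7 rose in LPS_ES_PMMA. That is 7.99% of those tested, against 4.76% of all features tested in either direction, 2.18% that rose and 2.58% that fell. The median log2 fold change of tested members was -0.37, beside 0.03 over all features; the 1 tested member with a group at 0 leaves it at -0.37 when set to its bound. Of the 438, 293 were below 0 (66.9%, against 48.2% of all features). The size of the 35 log2 changes had a median of 2.64 and a minimum of 1.05, with a median standard error of 0.433.

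These counts rest on the scaling and on single libraries. Scaled by column totals, 14 rose and 10 fell and the median was 0.42; by the totals that the FPKM columns imply, 11 rose and 14 fell and the median was 0.0841. With those scalings the median of all features itself moved to 0.82 and 0.46, so the members' median stayed below that of all features by -0.40 and -0.37, beside -0.40 with TMM. limma on log2(FPKM + 0.1) gave 11 that rose and 14 that fell, and on log2(FPKM + 1) 18 and 21. All 35 kept their sign in each alternative that tested them. Leaving out LPS_ES_PMMA 1, 2 or 3 left 5, 11 and 4 members past the threshold, and leaving out LPS_PMMA 1, 2 or 3 left 10, 2 and 12. Without both LPS_ES_PMMA 2 and LPS_PMMA 1, 7 passed, 4 of them among the 35, and the median was -0.0614 beside 0.00541 over all features.

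**Figure D3:**
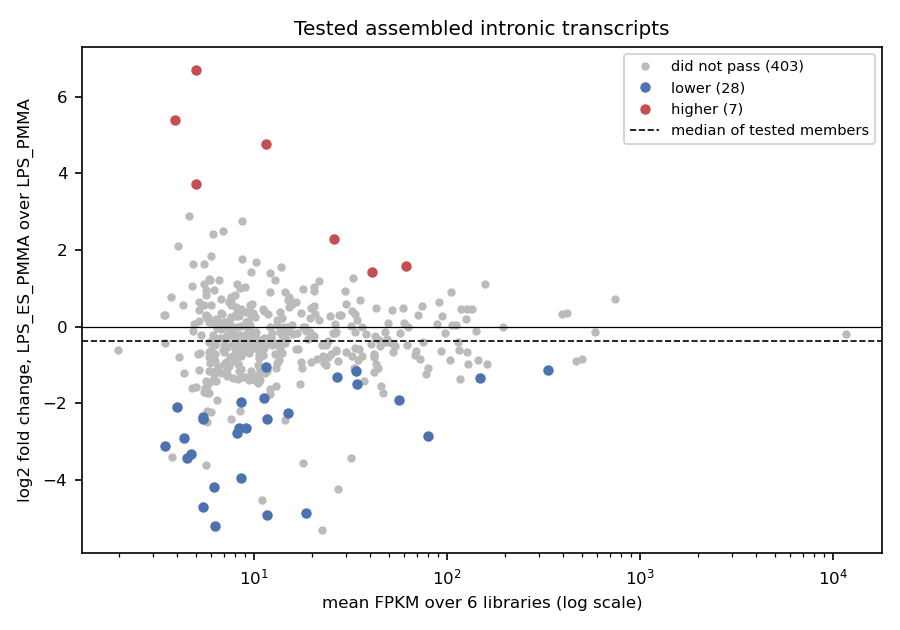
Fitted log2 fold change (LPS_ES_PMMA over LPS_PMMA) of the 438 tested members against their mean FPKM (log axis); coloured points passed the threshold (7 higher, 28 lower), grey points did not, and the dashed line is the median, -0.37. The cloud lies mostly below 0, and points with sizes above 3 have mean FPKM values well under those of the abundant members; under the column-total and FPKM-total scalings and under limma the median is above 0.

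Among the 438, the ranges of the groups in TMM-scaled CPM did not overlap for 37 members that were higher and 107 that were lower in LPS_ES_PMMA. Over all 8873 tested features 1440 (16.2%) were higher and 1295 (14.6%) lower without overlap, 30.8% in all. All 35 called members were among the non-overlapping ones. At an unadjusted edgeR p under 0.05 there were 125 of the 438 members, beside 1940 of all 8873 tested features (21.9%).

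Only 2 of the 35 passed in all 6 fits that left out 1 library, and 18 passed in none. The first was MSTRG.41311.1, listed at chromosome 4, positions 145000708 to 145007452, 5103 nt long. The table assigns it to Vps13d, which encodes a lipid transfer protein of organelle contacts. It had 38, 14 and 44 counts in LPS_ES_PMMA against 558, 835 and 847 in LPS_PMMA. In CPM these were 9.23, 7.09 and 14.8 against 274, 329 and 306, or 10.4 ± 3.99 against 303 ± 27.3 (SD, n = 3 each). It fell by 4.85 on the log2 scale (standard error 0.36, edgeR adjusted p 0.00206, the smallest among members). Over its alternatives the adjusted p ran from 3.04e-30 to 0.0387.

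The second was MSTRG.44237.1, listed at chromosome 5, positions 115055374 to 115060230, 396 nt long and assigned to the intramembrane protease gene Sppl3. It had 59, 19 and 42 counts against 241, 211 and 214. In CPM these were 14.3, 9.62 and 14.1 against 118, 83.0 and 77.3, with no overlap. It fell by 2.86 on the log2 scale (standard error 0.31, edgeR adjusted p 0.00576, and 7.12e-10 to 0.0486 over its alternatives). Its lower coordinate lay 4 bp from the 3′ end of Gm13822, an antisense RNA gene. Its sister isoform MSTRG.44237.2, which shares both listed ends, had 6, 9 and 4 counts against 29, 25 and 35 and fell by 2.41 (edgeR adjusted p 0.0406). This was the only locus with 2 called isoforms.

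Several members that fell met ends of immune genes at the local offset, while the table assigns them elsewhere. MSTRG.9414.1, listed in Asic2, an acid-sensing ion channel gene, met both ends of Ccl2, the monocyte-attracting chemokine. It had 2, 3 and 7 counts in LPS_ES_PMMA against 53, 63 and 42 in LPS_PMMA, and fell by 3.95 on the log2 scale (standard error 0.52, edgeR adjusted p 0.0118). MSTRG.54587.1, listed in the casein kinase subunit gene Csnk2a2, met the start of Ccl22, a chemokine of alternatively activated macrophages. Its 4, 1 and 2 counts against 25, 12 and 12 gave a fall by 3.13 (edgeR adjusted p 0.0335). In both members all LPS_ES_PMMA libraries lay below all LPS_PMMA libraries.

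MSTRG.3398.1, listed in the interferon-inducible gene Ifi213, met the 3′ end of Ifi204, a DNA-sensing family member of the same cluster. It had 0, 0 and 2 counts against 18, 34 and 20. With only 2 counts in LPS_ES_PMMA, the ratio of LPS_PMMA over LPS_ES_PMMA was 44.4, with an exact 95% interval of 11.9 to 374 that covers counting error only (edgeR adjusted p 0.0165). Ifi204 has close relatives in this cluster, so the assignment of its reads is uncertain. MSTRG.25125.1, without a named gene, met the 5′ end of Tnf, the tumour necrosis factor gene: its 181, 98 and 230 counts against 425, 401 and 259 gave a log2 value of -1.43 that did not pass (standard error 0.37, edgeR adjusted p 0.0769). These members were singled out after their values were seen. Others with ends of immune genes did not pass. They include MSTRG.24483.1, with an end of Dusp1 (adjusted p 0.462 to 0.959 over its alternatives), and MSTRG.8615.2, with both ends of Pik3r5, both described below.

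Other members that fell steeply had few reads in LPS_ES_PMMA. MSTRG.50491.1, listed in the neurotrophin receptor gene Ntrk3, had 8, 0 and 3 counts against 77, 119 and 62 (log2 fold change -4.91, standard error 0.64, edgeR adjusted p 0.0112). MSTRG.44.4, listed in the zinc finger gene St18, had 11, 1 and 0 against 48, 83 and 119 (-4.71, adjusted p 0.0188). Its locus holds 3 isoforms, and MSTRG.44.4 led it only in LPS_PMMA 2 and 3, with 60.1% and 64.3% of the counts. In LPS_ES_PMMA 1 to 3 other isoforms led, with 66.3%, 95.7% and 62.8%. The fold change is thus that of this isoform and not of the locus. MSTRG.38001.1, listed in the adhesion receptor gene Adgrl4, had 3, 0 and 3 against 37, 30 and 23 (-4.20, adjusted p 0.0165). In each of them the lowest LPS_PMMA library held several times the counts of the highest LPS_ES_PMMA library. MSTRG.51780.1, listed in Gm23445, MSTRG.33036.1, in the attractin gene Atrn, and MSTRG.34583.1, with no gene, fell by 3.42, 3.32 and 2.91 (edgeR adjusted p 0.0106, 0.0287 and 0.0259).

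MSTRG.22624.3 met both ends of Dubr, a lincRNA, and was at 96.9, 93.7 and 85.9 CPM against 213, 210 and 200 (-1.17, standard error 0.22, edgeR adjusted p 0.0281). MSTRG.51717.2, listed in Xpo6, a nuclear exporter of actin, was at 65.1, 77.0 and 94.7 CPM against 172, 196 and 234 (-1.34, adjusted p 0.0316). MSTRG.7449.3, listed in the transcriptional coregulator gene Sertad2, was at 9.96, 13.2 and 14.1 CPM against 56.0, 36.6 and 47.7 (-1.91, adjusted p 0.0165). None of the last members passed in more than 1 of the 6 fits without a library. The other 12 that fell had log2 changes from -2.78 to -1.05; they include MSTRG.8708.2 in the corepressor gene Ncor1, MSTRG.52427.1 in the potassium channel gene Kcnq1 and MSTRG.52012.1, which met an end of Bnip3, a mitophagy receptor gene.

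The 7 members that rose were low or silent in LPS_PMMA or rose moderately. MSTRG.42378.1, listed in the microtubule plus-end protein gene Mapre3, met the start of Cenpa, the centromeric histone H3 variant. It had 17, 10 and 15 counts in LPS_ES_PMMA and 0 in each LPS_PMMA library, at least 11.3-fold higher when 3 counts over the group are set for LPS_PMMA (edgeR adjusted p 0.0186). MSTRG.1953.1, listed in the anti-apoptotic gene Bcl2, had 23, 22 and 19 counts against 0, 0 and 1, a ratio of 51.9 with an exact 95% interval of 8.98 to 2080 (adjusted p 0.0155). MSTRG.841.4, listed in the aldehyde oxidase gene Aox1, had 50, 30 and 59 against 0, 0 and 4 (log2 fold change 4.76, adjusted p 0.0206). Leaving out a library kept the call in at most 1 of 6 fits for each of these.

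MSTRG.19618.1, listed in the synaptic vesicle gene Rims2, had 40, 27 and 30 counts against 0, 1 and 5 (log2 fold change 3.72, edgeR adjusted p 0.0275). MSTRG.18570.3, listed in the formin gene Diaph3, was at 20.4, 19.8 and 30.7 CPM against 6.39, 2.75 and 5.42 (2.28, adjusted p 0.0206). MSTRG.31915.3, listed in the C1 inhibitor gene Serping1, met the start or end of transcripts of Slc43a3, a purine nucleobase transporter, and was at 72.1, 88.1 and 92.3 CPM against 26.5, 27.9 and 30.0 (1.58, standard error 0.24, adjusted p 0.0166). The last, MSTRG.15232.4, with no gene, was at 38.1, 47.6 and 50.2 CPM against 15.7, 19.3 and 15.5 (1.42, adjusted p 0.025). In all 7 the lowest LPS_ES_PMMA library was above the highest LPS_PMMA library.

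**Figure D4:**
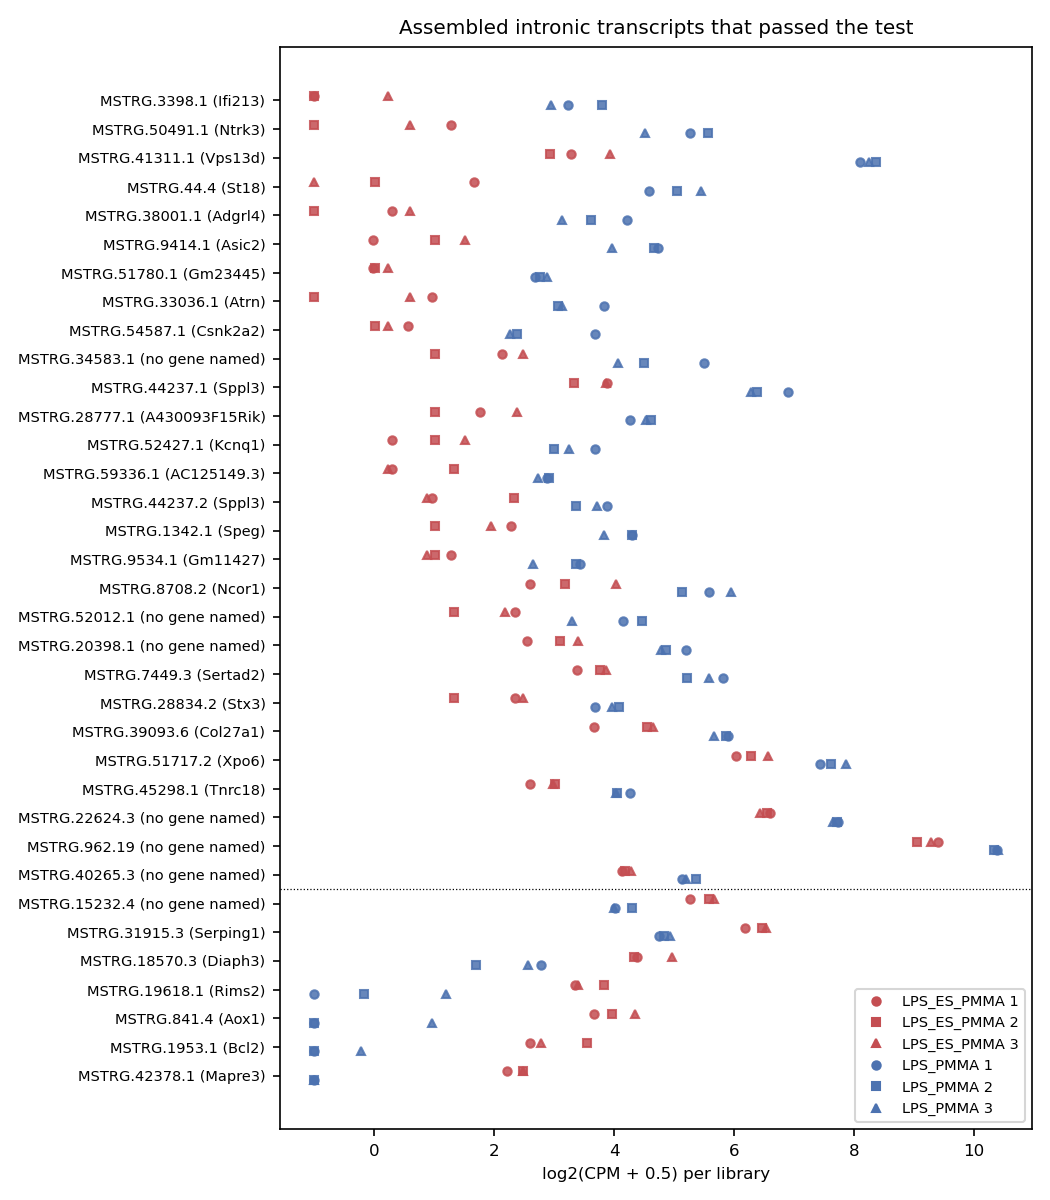
log2(CPM + 0.5) per library of the 35 called members, ordered by fold change, with the 28 that fell above the dotted line and the 7 that rose below it; colour gives the group and shape the replicate number, and points at the left edge have 0 counts. In every line the points of both groups stand apart; the shift is largest for members with few or no counts in 1 group, such as MSTRG.3398.1 and MSTRG.42378.1.

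Of the 35 called members 17 had a local offset, and 10 of these met an end of an annotated transcript. The 10 are the members described above with Ccl2, Ccl22, Ifi204, Nrp2, Dubr, Bnip3, Slc43a3, Cenpa and, for both isoforms of MSTRG.44237, Gm13822. Both ends were met for Ccl2 and Dubr. No comparison was made of called and other members in this respect.

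With counts summed per locus, 403 loci were tested and 35 passed, 8 that rose and 27 that fell (8.68%, against 4.82% of all features in that fit, 2.23% that rose and 2.59% that fell). The median log2 fold change was -0.41. Leaving out LPS_ES_PMMA 1, 2 or 3 left 6, 8 and 4 loci, and leaving out LPS_PMMA 1, 2 or 3 left 9, 13 and 13. A few calls differed between the locus fit and the transcript fit. MSTRG.56144, listed in the cell adhesion gene Clmp, had 120, 60 and 81 counts against 13, 28 and 16 and rose by 1.90 on the log2 scale (edgeR adjusted p 0.0196), while neither of its 2 members passed. At the local offset its member MSTRG.56144.1 met both ends of Gm16096, each at 0 bp. MSTRG.53334, listed in the cytoskeletal adaptor gene Sorbs2, fell by 1.14 (adjusted p 0.0461) and MSTRG.18753, which holds 1 member and so was not summed, rose by 1.21 (adjusted p 0.0499), both near the threshold. MSTRG.19618 and MSTRG.22624 each had a called member, and did not pass as whole loci (adjusted p 0.138 and 0.17).

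Isoforms of a locus were divided differently between libraries. Of the 46 loci with 2 or more members, 18 were led by the same isoform in every library in which the locus had reads and 28 by different ones. In MSTRG.9708, the locus of the U1 genes, MSTRG.9708.1 held all counts in 5 libraries. In LPS_PMMA 1 it held 4416 counts, while MSTRG.9708.2 held 14766 and MSTRG.9708.3 held 4723, and both of these were at 0 elsewhere. Summed, the locus stood at 4166, 3246 and 7413 CPM in LPS_ES_PMMA and at 11750, 9207 and 5547 in LPS_PMMA, and its groups overlapped (log2 value -0.84, standard error 0.44, edgeR adjusted p 0.31).

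MSTRG.14554, listed in the semaphorin gene Sema4d, differed widely between libraries. MSTRG.14554.7 had 6315, 3 and 4874 counts in LPS_ES_PMMA and 119, 232 and 5946 in LPS_PMMA, so that high and low libraries occurred in both groups. In LPS_ES_PMMA 2, MSTRG.14554.3 led with 97 counts, 85.1% of the locus. MSTRG.22624, the locus with 7 isoforms, was led by MSTRG.22624.3 in each library, with 40.6% to 47.2% of the locus in LPS_ES_PMMA and 53.2% to 83.3% in LPS_PMMA. There the isoforms differed in sign: MSTRG.22624.6 was at 1.01 on the log2 scale (edgeR adjusted p 0.32), against -1.17 for the leading one. Opposite signs among tested isoforms occurred in 8 loci, and only in MSTRG.22624 did any of them pass.

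In MSTRG.24599, listed in D17Wsu92e with ends of Hmga1, MSTRG.24599.3 held 86.3% to 92.5% of the counts in every library. In MSTRG.8708, listed in Ncor1, MSTRG.8708.2 led throughout, with 57.5% to 83.9%. At the local offset its sister isoform MSTRG.8708.3 met a single end of Ubb, at 2 bp. The locus fell by 2.27 on the log2 scale (standard error 0.38, edgeR adjusted p 0.0196), from 80.6, 42.1 and 74.4 CPM in LPS_PMMA to 9.71, 12.2 and 18.9 in LPS_ES_PMMA.

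**Figure D5:**
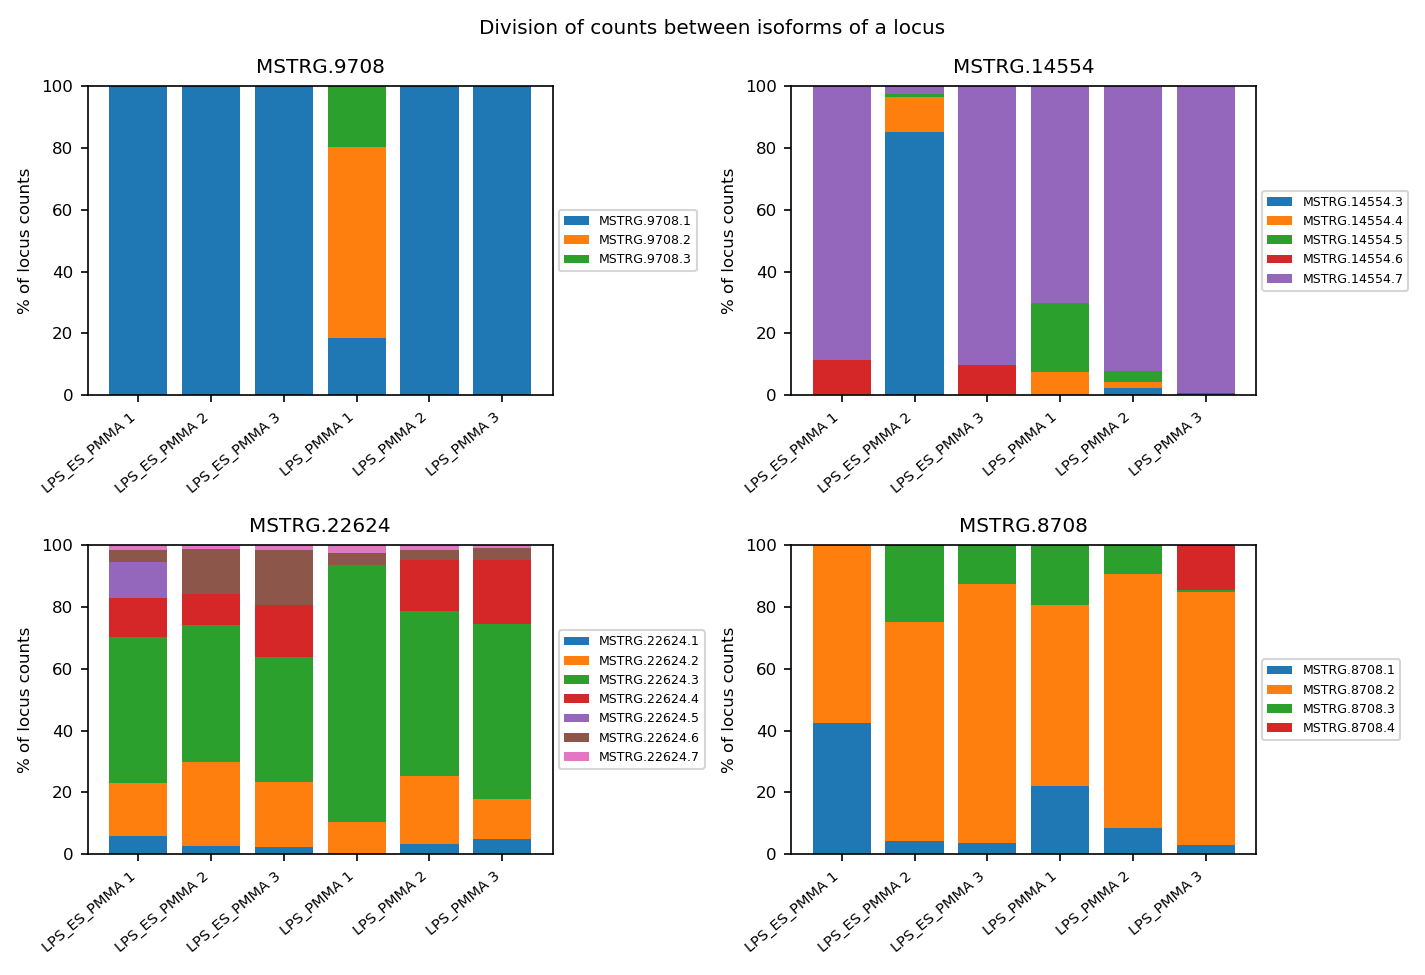
Share (%) of a locus' counts held by each of its isoforms, per library, in 4 loci. In MSTRG.9708 LPS_PMMA 1 alone is divided, in MSTRG.14554 LPS_ES_PMMA 2 is led by another isoform than the rest, and MSTRG.22624 and MSTRG.8708 keep their leading isoform.

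Members with reads in 1 group only mostly rested on 1 or a pair of libraries. In LPS_ES_PMMA 20 members were at 0 in all libraries, in LPS_PMMA 12, and 17 members had all their reads in 1 library. The table assigns 2 members with reads in 1 group only to Fbxl18, an F-box gene. MSTRG.45316.4 had 2, 0 and 716 counts in LPS_ES_PMMA, and MSTRG.45316.3 had 0, 543 and 0, both at 0 in LPS_PMMA. MSTRG.31984.2 in Fnbp4 had 97, 0 and 54 counts, MSTRG.22624.5 had 98 in LPS_ES_PMMA 1 alone, and MSTRG.50109.2 in the deubiquitinase gene Otud7a 82 in the same library. None of these was in reach of the test, and no fold is given for them.

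In the other direction, after the 2 minor isoforms of MSTRG.9708, MSTRG.20701.2, listed in Zbed4, had 48, 3 and 16 counts in LPS_PMMA. At the local offset it met both ends of AC117700.1. MSTRG.3832.1 in the kinase gene Rps6kc1 had 35, 0 and 25, and MSTRG.13704.1 in the chromatin reader gene Zmynd11 40, 0 and 16. All 3 were at 0 in LPS_ES_PMMA. Of these, only MSTRG.20701.2 had reads in each LPS_PMMA library.

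Few members touched gene lists of macrophage biology. By the gene the table names, the chromatin and transcription list held 10 members in 7 loci, 4 tested, of which MSTRG.8708.2 in Ncor1 fell. The endosome, lysosome and phagocytosis list held 2, of which the Vps13d member was tested and fell. In the cell cycle list 3 members were tested and 0 passed. The interferon list held 2 with 1 tested and 0 called: MSTRG.6909.1 in Stat2, a signal transducer of interferon receptors, with 115, 26 and 66 counts against 29, 52 and 45.

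The LPS and NF-kB list held 1 member, MSTRG.20379.1 in Tab1, an adaptor of the kinase TAK1, whose end fell 1 bp from that of Atf4, a stress-response transcription factor, at the local offset. It had 130, 43 and 104 counts against 232, 206 and 151 and did not pass (log2 value -1.49, standard error 0.35, edgeR adjusted p 0.0554). The alternative activation and osteoclast lists held 1 member each, neither tested, and the macrophage identity list and the markers of other cell types held 0. Read against the 2.18% and 2.58% of all tested features that rose and fell, these counts are too small to set the lists apart.

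By the ends met at the local offset, the LPS and NF-kB list held 4 members, 3 tested and 1 that fell: the members with ends of Ccl2, Tnf and Dusp1, a phosphatase that switches off MAP kinases, and the untested MSTRG.49420.1 with an end of Zfp36, a protein that destabilizes cytokine mRNA. The alternative activation list held 2, the member with the Ccl22 start that fell and MSTRG.8615.2, which met both ends of Pik3r5, a regulatory subunit of phosphoinositide 3-kinase, and was at 37, 20 and 26 counts against 32, 20 and 27 (log2 value -0.25, edgeR adjusted p 0.719). The interferon list held the member that met the Ifi204 end. The chromatin list held 1, untested, and the other lists described here held 0. Beside the 2.58% of all tested features that fell, these counts too are too small to set the lists apart.

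The other assembled classes also held more transcripts that fell than rose with TMM scaling. Of 799 tested assembled antisense transcripts, 18 rose and 37 fell (6.88%, median log2 fold change -0.38), and of 397 assembled intergenic ones 11 rose and 17 fell (7.05%, median -0.43). Of 1602 annotated sense intronic lncRNAs, 29 rose and 24 fell (3.31%, median 0.12). These shares were not tested against each other. The log2 ratio of summed intronic to summed intergenic assembled counts was -1.73, -1.67 and -1.88 in LPS_ES_PMMA and -2.19, -1.86 and -1.65 in LPS_PMMA; the groups overlapped, with a difference of 0.14 (exact two-sided permutation p = 0.7, smallest possible 0.1).

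Summed over all members, the level was 18890, 18130 and 24430 CPM in LPS_ES_PMMA and 33390, 27070 and 24010 CPM in LPS_PMMA. LPS_ES_PMMA 3 lay above LPS_PMMA 3, and the log2 difference was -0.46 (exact two-sided permutation p = 0.2; this design cannot go below 0.1). MSTRG.9708 alone made up 17.9% to 35.2% of the members' counts. Without that locus the difference was -0.31 and the groups overlapped no longer (exact p = 0.1). The direction rests on the scaling: with column totals the difference over all members turned to 0.35 (exact p = 0.1) and without the locus to 0.49 (exact p = 0.2), and with the totals that FPKM imply it was -0.0124 over all members and 0.13 without the locus (exact p = 0.9 and 0.4).

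The authors' deposited table marks 38 members as UP and 96 as DOWN, against 1075 and 618 of all rows (4.33% and 2.49%, 6.82% in all). Of these 134 members, 61 had too few counts for the test used here, 8 had reads in 1 library only, and 30 were among the 35 called here. The authors' marks follow another threshold than the adjusted p used here. Over all marked rows their unadjusted p-value reached 0.05, and the smallest size of log2 fold change was 1. MSTRG.4273.3 is marked UP at a q-value of 0.342. For MSTRG.41311.1 the authors' deposited table gives a log2 fold change of -4.49, and for MSTRG.44237.1 -2.39.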

How the data were processed

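RNA of 6 RAW264.7 libraries was sequenced after total RNA entered a SMARTER mRNA kit, per the labels' protocols. The deposited table gives the authors' whole-number counts per lncRNA transcript and their FPKM values, per the file headers, and the authors' log2 fold change, p-value and q-value; the submitters' processing notes name the build mm10. Names of the aligner, assembler and counter were not given in the sources used here. Members and lists were chosen with earlier results of these data known.

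All rows were fitted together with edgeR 4.0.16 (R 4.3.3): filterByExpr (minimum count 10, minimum total 15), TMM, quasi-likelihood F-test without covariates, prior count 0.125. Standard errors are approximate (log2 fold change divided by the root of F). The fit was tested on simulated data. CPM are counts over TMM-scaled library totals. A group at 0 was set to 3 counts over the group for a bound. Replicates differed beyond sampling noise (chi-square per degree of freedom 9.97 to 66.0 over members). Alternatives used DESeq2 1.42.0, limma 3.58.1, other scalings, filters and libraries.

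Local offsets were sought in a window of 1000 kb in bins of 40 bp, from at least 6 other loci within 8 Mb and a lead of 1.5 times over the next offset, settings chosen after seeing the data; the locus itself never counted. Ends were met within 20 bp by genomic coordinate, whatever the strand. Named members are the 10 most abundant, 1 per locus, the called ones with the 10 largest changes each way, the 5 loci with most members, tested members in a list, the 5 with most counts among those at 0 in a group, those passing without any 1 library, and loci with opposite signs and a call. Other called members and members meeting ends of list genes were added after their values were seen. A locus and a gene list are not reported here.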

Additional observations from a re-analysis of the deposited data

How the results depend on the processing

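The 35 transcripts and 35 loci past the threshold became 19 and 21 without a filter on low counts, where more features enter the adjustment, and 7 and 5 without both LPS_ES_PMMA 2 and LPS_PMMA 1, a choice made after seeing the data. Leaving out 1 library each gave 2 to 12 transcripts and 4 to 13 loci, medians of -0.62 to -0.17 and summed differences of -0.59 to -0.33. Column totals gave 23 loci. DESeq2's Wald test gave 52 transcripts and robust edgeR 43, of which 33 and 35 were among the 35. Fewer of the 35 passed elsewhere: 17 with column totals, 21 with FPKM totals and 19 without a filter on low counts. With limma on log2(FPKM + 0.1) and on log2(FPKM + 1), 21 and 27 of them passed. The median log2 fold change turned to 0.42 with column totals, 0.0841 with FPKM totals, 0.0573 with limma on log2(FPKM + 0.1) and 0.0683 on log2(FPKM + 1), and was -0.0614 without both libraries; the summed difference turned to 0.35 with column totals, and without MSTRG.9708 to 0.494 with column totals and 0.134 with FPKM totals, the last pair chosen after seeing the data. Same-numbered libraries correlated at -0.018, -0.027 and -0.09 in their deviations from the group means, and the other pairs at -0.071 to 0.11. Such values do not settle whether a replicate number marks a shared culture or batch, and no label says so. A fit with a replicate block gave 6 transcripts, 2 of them among the 35, and 6 loci. Over named results with a test, 1002 of 1352 alternative values stayed on their side of the threshold, 345 lost it, 5 gained it and 0 changed sign. Many of the 1352 belong to results that never passed and so could not lose it. Of the named results that passed, 36 lost the threshold in the replicate block and 28 to 34 in each fit without 1 library. The causes were not tested. A median of 103 counts per member and 3 libraries a group limit what could be detected.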
